A study of Canis lupus familiaris with 36 samples.

Results

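BCL6 and 6 further genes of the germinal centre, MME, S1PR2, RGS13, LMO2, MYBL1 and MEF2B, were followed across the lymphomas of 35 dogs. They are 7 of the 15115 genes that had a probe set annotated to a single gene symbol, and each was found by its symbol and read from 1 probe set, the brightest on average where there were several. LMO2 had 2 probe sets and each of the others had 1. Only 3 of the 7, BCL6, LMO2 and RGS13, passed the filter on low values and were among the 7500 genes tested. BCL6 was lower in B-cell than in T-cell tumours, LMO2 was higher in them, RGS13 was high in single tumours, and the remaining 4 were below the minimum in all but 1 dog.

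The germinal centre is the structure in lymph node follicles where activated B cells divide, mutate their antibody genes and are selected with the help of follicular helper T cells. BCL6, a transcriptional repressor, holds B cells in this state by silencing genes of plasma cell differentiation, migration and DNA damage response, and it is also the lineage regulator of the follicular helper T cell. In human diagnostic pathology the proteins BCL6, MME (CD10) and LMO2 are used as markers of lymphomas that derive from germinal centre B cells.

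Gene expression was measured on 36 Affymetrix canine arrays, 1 per dog except for 1 dog with DLBCL whose 2 arrays, replicates 6 and 7, were averaged. The labels gave each dog a disease state and a phenotype. The B phenotype (17 dogs) held DLBCL (diffuse large B-cell lymphoma, 10 dogs, all of high grade, aged 4 to 14 years, 6 of them Golden Retrievers), MZL (marginal zone lymphoma, 5 dogs, all of low grade, aged 4 to 10, 4 Golden Retrievers) and a disease state labelled BL (2 dogs of high grade, aged 2 and 5, 1 Golden Retriever). The T phenotype (17 dogs) held LBT (4 dogs of high grade, aged 3 to 10, 3 Golden Retrievers), PTCL (peripheral T-cell lymphoma, 4 dogs aged 6 to 14, 3 of high and 1 of intermediate grade, 1 Golden Retriever) and TZL (T-zone lymphoma, 9 dogs of low grade, aged 7 to 11, 8 Golden Retrievers). The labels do not spell out BL and LBT, and those codes are kept as they stand. A single dog of low grade, aged 8 and a Golden Retriever, carried the label NBNT, for neither T nor B, and is given by its values only. No array held normal lymphoid tissue, so every comparison is between tumours. The material was whole tumour tissue that had been dissociated mechanically and filtered, not sorted cells, so in each of the comparisons fewer cells of a type and less RNA per cell cannot be told apart.

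Values are log2 intensities, and the minimum for a usable signal was set at 4 (an intensity of 16). All 7 measured B cell markers were higher in the B dogs and all 9 T cell markers lower. The mean log2 intensity of the B cell markers ran from 8.82 to 9.91 in the B dogs and from 2.35 to 8.69 in the T dogs. That of the T cell markers ran from 5.76 to 8.10 in the B dogs and from 9.09 to 11.52 in the T dogs. The NBNT dog had a T cell marker mean of 10.69 and a B cell marker mean of 8.49, both inside the ranges of the T dogs. These are means over unsorted tissue and do not test its label. On 6 arrays (TZL replicates 1, 2 and 7, DLBCL replicates 4 and 9, and PTCL replicate 3) the 3' control probe set for actin stood at 14.03 to 14.45, against 10.79 to 12.45 on the other 30, and results are also given with and without them where that mattered.

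**Figure D1:**
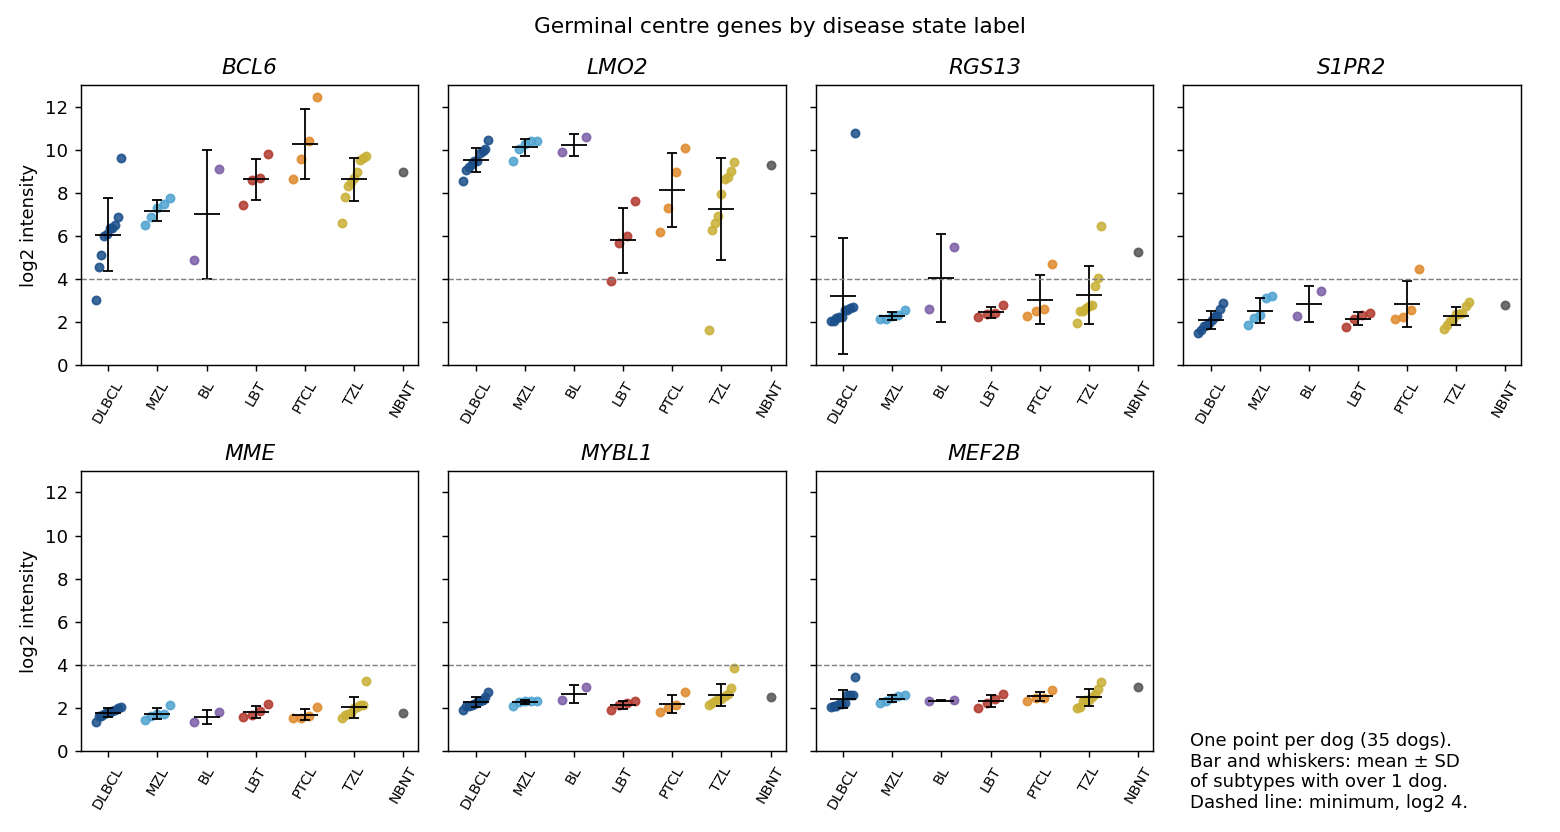
The log2 intensity (vertical axis) of each of the 7 genes in each of 35 dogs by disease state (horizontal axis), 1 point per dog, set out from low to high within a disease state, with the mean ± SD of states with more than 1 dog and a dashed line at the minimum of 4. BCL6 and LMO2 lie above the line in nearly all dogs. The means of BCL6 are lower in the B states than in the T states, and those of LMO2 are higher. RGS13 rises above the line in 6 dogs with 1 DLBCL dog at 10.79, S1PR2 does so in 1, and MME, MYBL1 and MEF2B do so in none.

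BCL6 was lower in the B-phenotype tumours than in the T-phenotype tumours. Among the 17 B dogs its log2 intensity had a lowest value of 3.03, a median of 6.49 and a highest value of 9.63. Among the 17 T dogs the lowest was 6.59, the median 8.67 and the highest 12.43. The groups overlapped, but 10 of the 17 B dogs lay below every T dog and 4 T dogs lay above every B dog. The B mean was 6.49 ± 1.60 and the T mean 9.01 ± 1.29 (SD, n = 17 in both), a difference of -2.51 (SE 0.48) or 5.71-fold lower in B (limma, adjusted p = 6.65e-05). LMO2 was called in the same comparison in the other direction, so 2 of the 3 members tested were called, against 46.5% of all genes tested. That background is high because B and T tumours differ in a large share of genes: 22.3% of genes were called lower in B and 24.2% higher.

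T cell markers moved with this BCL6 difference. All 9 of the 9 listed were measured and called lower in B, and their summed intensity was 1784 to 8244 in B dogs and 7793 to 35570 in T dogs. CD28 was below the minimum in every MZL and BL dog, and no marker was so in every dog of the B phenotype. Their part in the BCL6 difference was not tested. Within disease states the correlation between BCL6 and the mean of the T cell markers was weak (Pearson r = 0.29 over 34 dogs, as a description).

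By disease state, PTCL had the highest mean BCL6 and DLBCL the lowest. The 4 PTCL dogs measured 8.63 (replicate 3), 9.55 (replicate 1), 10.38 (replicate 4) and 12.43 (replicate 2), with a mean of 10.25 ± 1.62. The 9 TZL dogs ran from 6.59 to 9.69 with a median of 8.67 and a mean of 8.63 ± 0.99. The 4 LBT dogs measured 7.44, 8.59, 8.67 and 9.80, with a mean of 8.62 ± 0.96, and so lay at the level of TZL.

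The 5 MZL dogs were a tight group at 6.49, 6.87, 7.29, 7.46 and 7.75, with a mean of 7.17 ± 0.50. The 2 BL dogs were far apart, at 9.12 (replicate 1) and 4.88 (replicate 2). The 10 DLBCL dogs ran from 3.03 to 9.63 with a median of 6.22 and a mean of 6.06 ± 1.70. The spread in DLBCL came from both ends, since replicate 8 was below the minimum and replicate 3 at 9.63 was 2.77 above the next DLBCL dog. Without replicate 3 the DLBCL mean was 5.66 ± 1.22 (n = 9). The NBNT dog had a BCL6 value of 8.98, inside the T range, and among the B dogs only DLBCL replicate 3 and BL replicate 1 were above it.

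Neighbouring states in this order (PTCL, TZL, LBT, MZL, BL, DLBCL) did not differ beyond their spread. The step from PTCL to TZL was 1.62 (SE 0.80, adjusted p = 0.191), and that from LBT to MZL was 1.45 (SE 0.90, adjusted p = 0.232). Of the 15 pairs of states, 4 were called for BCL6, all with a B state lower than a T state. The widest was DLBCL against PTCL, at -4.19 (SE 0.79, 18.3-fold lower in DLBCL, adjusted p = 0.000323). BCL6 was the 1 member called there, against 20.9% of genes, and 9 of the 10 DLBCL dogs lay below every PTCL dog. All 9 T cell markers were lower in DLBCL too, as were 4 of 9 tested macrophage, 1 of 4 plasma cell and 1 of 5 follicular dendritic cell markers. So were 1 of 2 endothelial and 1 of 4 neutrophil markers, and 4 of 7 B cell markers were higher. Their part in this BCL6 difference was not tested. Between DLBCL and TZL the difference was -2.57 (SE 0.61, adjusted p = 0.00101; 46.9% of genes called). Between DLBCL and LBT it was also -2.57 (SE 0.79, adjusted p = 0.0121; 33.7% called). MZL against PTCL gave -3.08 (SE 0.90, adjusted p = 0.0192; 15.5% called), and these states did not overlap, as was so for 6.23% of genes in that direction.

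MZL and TZL are the low-grade states. For BCL6, MZL minus TZL was -1.46 (SE 0.75), which did not pass (adjusted p = 0.147). It passed with limma's array weights (-1.56, adjusted p = 0.0214) and when only MZL and TZL were fitted (-1.46, adjusted p = 0.0211). Grade steps within a phenotype also missed the threshold. BCL6 differed by -1.12 between DLBCL and MZL (SE 0.73, adjusted p = 0.552) and by 1.62 between PTCL and TZL, given above. The difference between these steps was -2.74 (SE 1.09, unadjusted p = 0.0172, adjusted p = 0.222), with 1.96% of genes called in that test. In DLBCL against MZL limma called 0.0% of genes, although 977 genes had an unadjusted p under 0.05. The 2 BL dogs gave little more: 0.0267% of genes were called against DLBCL, 0.173% against MZL and 6.29% against PTCL, and BCL6 was called in none of these (BL minus PTCL -3.25, adjusted p = 0.0891).

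The BCL6 difference between B and T was of similar size within the 6 arrays that stood apart (-2.79, 2 B dogs with a mean of 5.82 ± 0.97 and 4 T dogs with a mean of 8.61 ± 0.80) and outside them (6.58 ± 1.67 in 15 B dogs, 9.13 ± 1.41 in 13 T dogs). With 6 arrays alone it did not pass (adjusted p = 0.0779).

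**Figure D2:**
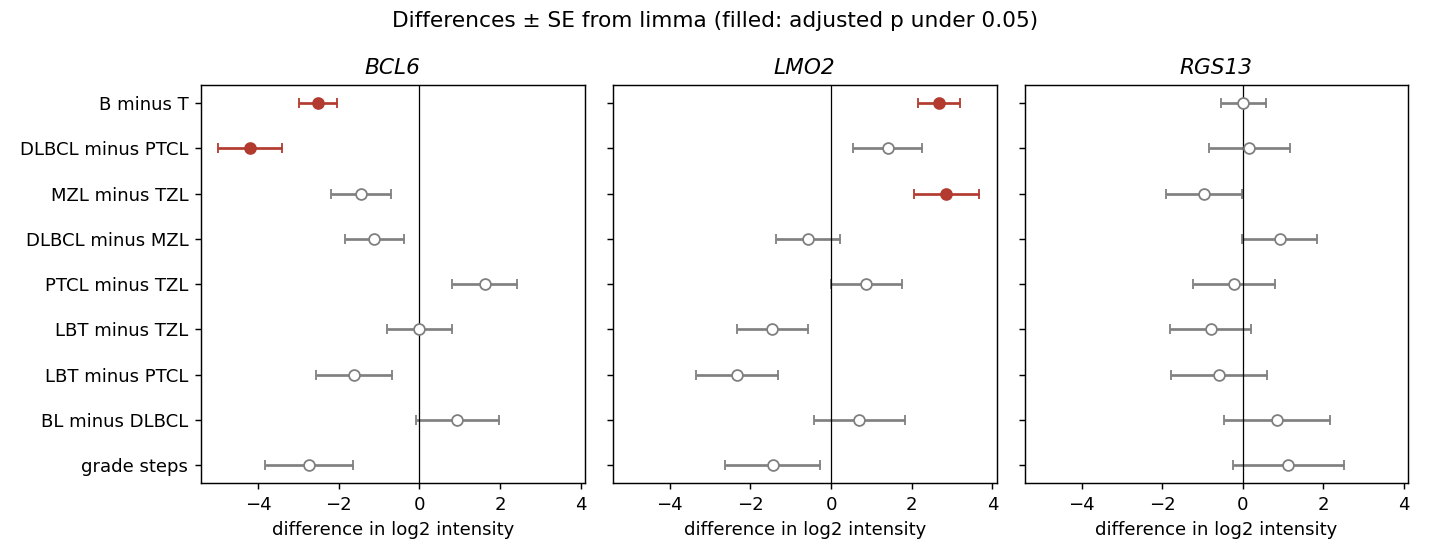
Differences in log2 intensity (horizontal axis) between the groups named on the vertical axis for BCL6, LMO2 and RGS13, as estimates ± SE from limma, filled red where the adjusted p was under 0.05; "grade steps" is the DLBCL minus MZL difference less the PTCL minus TZL difference. BCL6 is called at -2.51 for B minus T and -4.19 for DLBCL minus PTCL, LMO2 at 2.67 for B minus T and 2.86 for MZL minus TZL, and RGS13 nowhere.

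LMO2, a LIM-domain adaptor that assembles transcription factor complexes in blood cell precursors and in germinal centre B cells, was higher in the B tumours. Its log2 intensity in the 17 B dogs had a lowest value of 8.54, a median of 9.88 and a highest value of 10.59. In the 17 T dogs the lowest was 1.65, the median 7.28 and the highest 10.07. B dogs were uniform and T dogs were not: the SD was 0.57 in B and 2.13 in T around means of 9.79 and 7.11. The difference was 2.67 (SE 0.51), 6.37-fold higher in B (limma, adjusted p = 7.35e-05). The groups overlapped, with 11 of 17 T dogs below every B dog.

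The 3 B states lay close together. The 10 DLBCL dogs ran from 8.54 to 10.44 around a mean of 9.53 ± 0.55, and the 5 MZL dogs measured 9.46, 10.02, 10.26, 10.39 and 10.42. The 2 BL dogs measured 9.88 and 10.59.

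The T states spread widely. The 4 LBT dogs measured 3.92, 5.67, 5.98 and 7.61 and all lay below every B dog. The 4 PTCL dogs measured 6.20 (replicate 2), 7.28 (replicate 3), 8.96 (replicate 1) and 10.07 (replicate 4). The 9 TZL dogs ran from 1.65 (replicate 5) to 9.44 (replicate 3) with a median of 7.93. TZL replicate 5 was alone at the bottom, 4.64 below the next TZL dog. The NBNT dog had 9.28.

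In the order of means (BL 10.23, MZL 10.11, DLBCL 9.53, PTCL 8.13, TZL 7.25, LBT 5.79) no neighbours differed beyond their spread, the adjusted p of the 5 steps lying between 0.214 and 0.981. Of the 15 pairs 5 were called, each with a B state above LBT or TZL. MZL exceeded TZL by 2.86 (SE 0.81, 7.26-fold, adjusted p = 0.00869), where 27.5% of genes were called, and the states did not overlap, as was so for 7.01% of genes in that direction. DLBCL exceeded LBT by 3.74 (SE 0.86, adjusted p = 0.00113), again with no overlap (4.68% of genes). DLBCL exceeded TZL by 2.28 (adjusted p = 0.00582), with overlap. MZL exceeded LBT by 4.32 (adjusted p = 0.00129; 28.7% of genes called) and BL exceeded LBT by 4.44 (adjusted p = 0.0163; 13.8% called), both with no overlap (10.8% and 20.2% of genes). The 2 BL dogs lay above all TZL dogs, as for 22.5% of genes, but that pair did not pass (25.3% called). PTCL was not separated from any B state, and DLBCL over PTCL was 1.41 (SE 0.86, adjusted p = 0.256).

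LBT below TZL (-1.46, SE 0.87) did not pass (adjusted p = 0.214, with 30.1% of genes called), but it reached -2.16 with an adjusted p of 0.00863 without TZL replicate 5. LBT below PTCL was -2.33 (SE 1.03, adjusted p = 0.337; 0.68% of genes called). Within the 6 arrays that stood apart the difference of B over T was 2.18 (adjusted p = 0.143).

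The 2 probe sets of LMO2 gave the same direction. On the dimmer one the mean was 7.37 ± 0.97 in B and 4.72 ± 1.61 in T. Within disease states the deviations of the 2 probe sets correlated at r = 0.83 over 34 dogs, and at 0.85 without the 2 dogs farthest from the median of the main probe set.

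Among the T tumours LMO2 went with B cell markers. The 6 T dogs with an LMO2 value of at least 8.5 had a B cell marker mean of 7.55 to 8.69, and the 11 T dogs under 8.5 had one of 2.35 to 7.06. The cut of 8.5 lies in a gap of the LMO2 values of these dogs, between 7.93 and 8.65, so the split is a description only. The lists of highest and lowest dogs match at the ends. LBT replicate 1, with the lowest B cell marker mean of all (2.35), had LMO2 at 3.92, and TZL replicate 5, with a mean of 3.42, had LMO2 at 1.65. TZL replicate 3 and PTCL replicate 4, with the highest means among T dogs (8.69 and 8.68), had LMO2 at 9.44 and 10.07. The markers did not move as one, since CD79A was at 8.65 in TZL replicate 5, the highest of the TZL dogs. For the whole list (7 of 9 markers measured) the summed intensity was 6695 to 10560 in B dogs and 38.8 to 5809 in T dogs, and BLK was the 1 marker below the minimum in every LBT dog. The part of B cells in the LMO2 values of T tumours was not tested beyond these values.

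**Figure D3:**
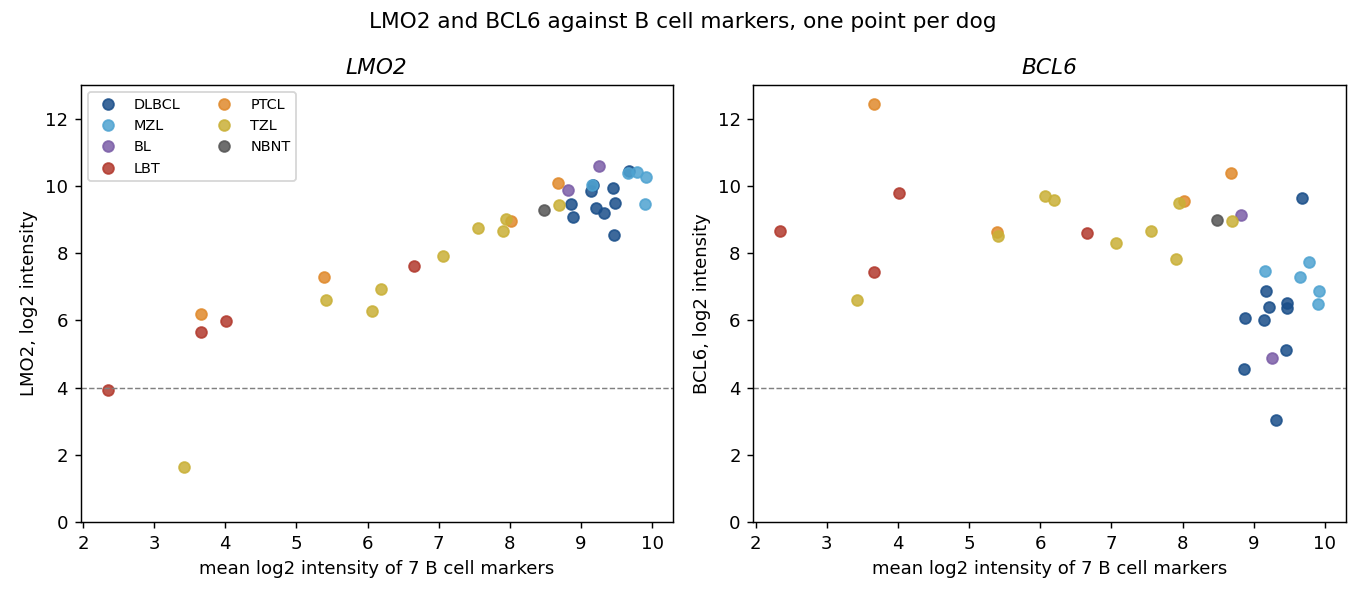
The log2 intensity of LMO2 (left) and BCL6 (right) against the mean log2 intensity of 7 B cell markers, 1 point per dog (35 dogs) coloured by disease state, with a dashed line at the minimum of 4. LMO2 climbs with the markers across the T dogs, from 1.65 and 3.92 at the low end to 9.44 and 10.07 at the high end, whereas BCL6 ranges from 6.59 to 12.43 in T dogs and its highest value is in a dog with a marker mean of 3.66.

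After the mean of each disease state was subtracted, the genes whose deviations followed LMO2 most closely over 34 dogs, among 7499 others, were BTK (r = 0.96, rho = 0.84), SYK (r = 0.94, rho = 0.86) and PLCG2 (r = 0.92, rho = 0.83). All are signalling enzymes downstream of the B cell receptor. Without the 2 dogs farthest from the LMO2 median the values were 0.92, 0.88 and 0.87. MS4A1, which encodes the B cell surface protein CD20, ranked 8th at r = 0.89, and the B cell marker mean gave r = 0.90. CD79A, also on that marker list, followed LMO2 less closely (r = 0.32, rho = 0.49, rank 670). BCL6 shared little of this, with r = 0.19 to LMO2 and 0.04 to the B cell marker mean.

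The genes closest to BCL6 were JCHAIN (r = 0.71, rho = 0.55), the joining chain of secreted antibody, VGLL4 (r = 0.70, rho = 0.70), a cofactor of TEAD transcription factors, and LOC403708 (r = 0.66, rho = 0.60). Without DLBCL replicate 8 and PTCL replicate 2, the 2 dogs farthest from the BCL6 median, r was 0.75, 0.65 and 0.61. The plasma cell marker mean gave r = 0.49 with BCL6. These are the highest of many coefficients over dogs that share arrays and tissue makeup, and they describe these dogs only.

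RGS13, a regulator of G protein signalling that damps chemokine receptor responses in germinal centre B cells, reached the minimum in 6 of the 35 dogs. DLBCL replicate 3 was at 10.79, TZL replicate 7 at 6.46, BL replicate 1 at 5.48, the NBNT dog at 5.26, PTCL replicate 4 at 4.72 and TZL replicate 4 at 4.03. The other 29 dogs lay between 1.97 and 3.69. DLBCL replicate 3 was 110.8-fold above the minimum, while the other 9 DLBCL dogs ran from 2.04 to 2.69. RGS13 entered the tests through 5 of the 34 dogs tested, so its group means are set by single tumours. Between B and T the difference was 0.02 (SE 0.57, adjusted p = 0.986) and turned to -0.47 without DLBCL replicate 3 (adjusted p = 0.256). None of the 15 pairs of disease states was called. Both BL dogs (5.48 and 2.62) lay above all MZL dogs, as for 14.5% of genes, but only the first reached the minimum.

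The 6 dogs with RGS13 at the minimum came from 5 labels and had BCL6 values of 7.81 to 10.38 and LMO2 values of 8.65 to 10.07 or, in DLBCL replicate 3, 10.44. In TZL replicate 7, on 1 of the arrays that stood apart, RGS13 was 5.51-fold above the minimum. Across dogs, after subtraction of state means, RGS13 and BCL6 had r = 0.49 but rho = 0.20. RGS13 was below the minimum in 29 of the 35 dogs, so its likeness to other genes rests on the few high tumours. The closest were BCAR3 (r = 0.84, rho = 0.61), an adaptor of cell adhesion signalling, CA6 (r = 0.78, rho = 0.46), a carbonic anhydrase, and NCKAP1 (r = 0.76, rho = 0.59), an actin regulator. Without DLBCL replicate 3 and TZL replicate 7, r was 0.67, 0.20 and 0.44.

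S1PR2, the sphingosine 1-phosphate receptor that holds B cells inside the germinal centre, reached the minimum in 1 dog. PTCL replicate 4 was at 4.44, and the other 34 dogs ran from 1.50 to 3.43. MME, the surface peptidase CD10, stayed between 1.36 and 3.24 in all 35 dogs. The transcription factors MYBL1 (A-MYB), which is high in dividing germinal centre B cells, and MEF2B, an activator of BCL6 there, stayed between 1.80 and 3.87 and between 1.99 and 3.42. No value of these 3 genes reached the minimum. Each of the 4 genes had 1 probe set and no test was made. A low value on 1 probe set gives no level of the transcript, since no second probe set was at hand for any of them.

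DLBCL replicate 3 stood apart from the other 9 DLBCL dogs in RGS13. It also had the highest BCL6 and LMO2 values of the DLBCL dogs, BCL6 by 2.77 and LMO2 by 0.41, but neither gap was wide against the range of the state. Its S1PR2 (2.90), MYBL1 (2.73), MEF2B (3.42) and MME (1.89) lay below the minimum, where values have no reliable order. Its MS4A1 value of 10.87 was the lowest of the DLBCL dogs, whose median was 11.31. Of the 23 tested genes on a list of germinal centre B cell genes, 9 were highest in this dog (39.1%) and 1 was lowest (4.35%), where 977 of the 7500 genes tested were highest and 19.6% of them lowest in it. The 9 included KLHL6 at 7.03 against 2.30 to 3.61 in the other dogs, CD38 at 6.78 against 2.82 to 5.02, FAS at 5.18 against 2.12 to 4.24 and FOXO1 at 9.69 against 7.10 to 8.51. For 3 of the 9 the next dog was almost level, POU2AF1 (6.37 against 6.36), ELL3 (8.80 against 8.79) and CXCR5 (7.23 against 7.20).

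Among these, KLHL6 is a ubiquitin ligase adaptor needed for germinal centre formation, CD38 a surface enzyme of germinal centre and plasma cells, FAS a death receptor and FOXO1 a transcription factor of the dark zone. PRDM1, the plasma cell regulator that BCL6 represses, was also highest in this dog, at 6.46 against 2.13 to 3.17 in the other DLBCL dogs. So was the plasma cell marker mean, at 8.33, and the summed intensity of those markers (5 of 7 measured, SDC1 below the minimum in every dog) was 16560 against a DLBCL median of 2105. The part of plasma cells in the values of this tumour was not tested.

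The gaps were not limited to germinal centre genes. In DLBCL replicate 3, 16 genes were at least 4 above all other DLBCL dogs, where the other 9 had 0 to 6 such genes, and 87 were at least 2 above. The widest gaps were those of CA6 (12.12 against at most 2.84), RGS13, AOX2 (9.89 against at most 2.08) and BCAR3 (10.73 against at most 3.40). This dog was not on 1 of the 6 arrays that stood apart.

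**Figure D4:**
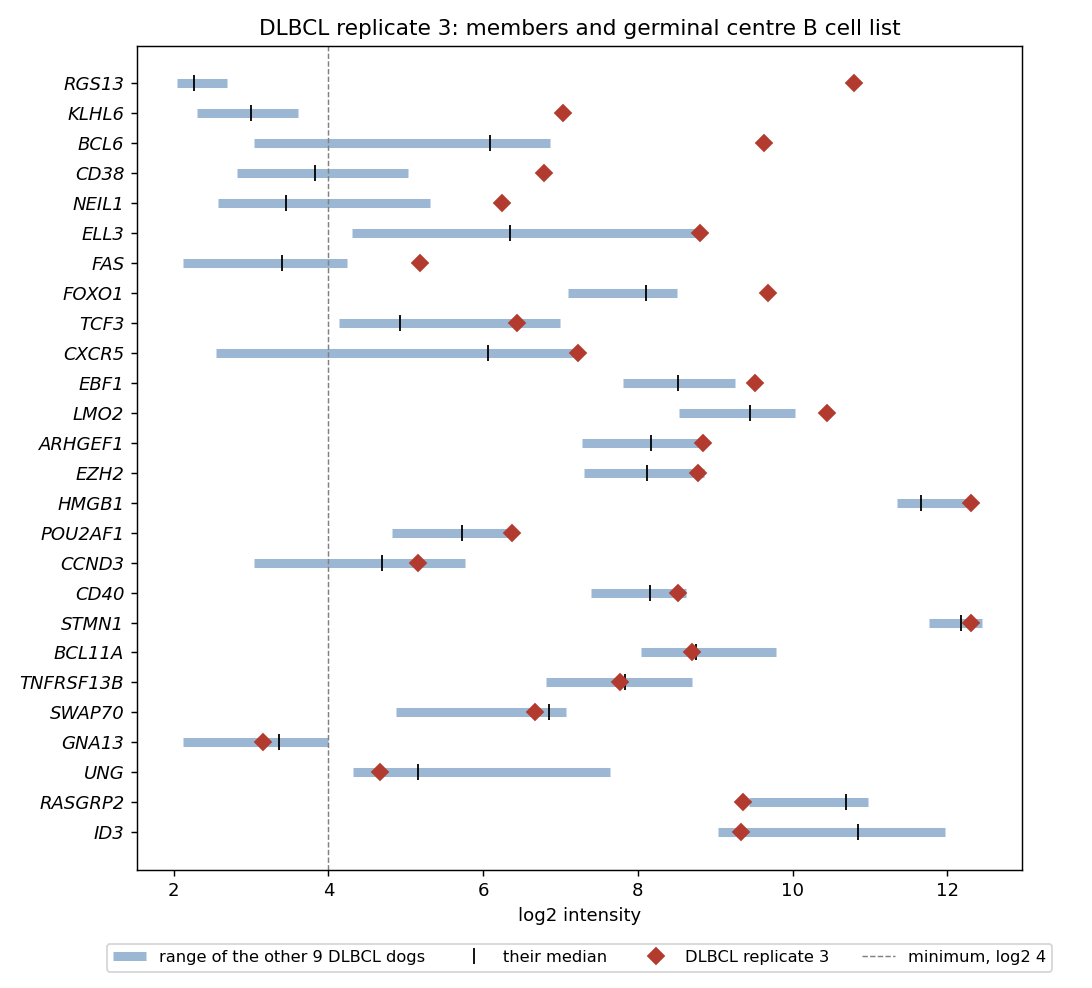
Log2 intensity (horizontal axis) of BCL6, LMO2, RGS13 and the 23 tested genes of the germinal centre B cell list in DLBCL replicate 3 (red diamonds), with the range (blue bars) and median (black ticks) of the other 9 DLBCL dogs and the minimum of 4 (dashed line), ordered by distance from that median. RGS13 at 10.79, KLHL6 at 7.03 and BCL6 at 9.63 lie farthest to the right of their bars, and 9 of the 23 listed genes lie above the highest other dog.

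RGS13 also reached the minimum in BL replicate 1 (5.48), the NBNT dog (5.26) and TZL replicates 4 and 7. BCL6 and LMO2 were at 9.12 and 9.88 in BL replicate 1 and at 8.98 and 9.28 in the NBNT dog. BCL6 reached the minimum in 34 and LMO2 in 33 of the 35 dogs, so their presence beside RGS13 sets no group of tumours apart. PTCL replicate 4, the T dog of intermediate grade, was a further dog with RGS13 at the minimum and the only one in which S1PR2 reached it. Its LMO2 of 10.07 and S1PR2 of 4.44 were the highest of the T dogs, its BCL6 of 10.38 was the second highest of all dogs, and its RGS13 was 4.72. The B cell follicle chemokine CXCL13 was at 9.67 in it, against 3.02 to 5.12 in the other 3 PTCL dogs. PRDM1 was at 6.78. Its B cell marker mean of 8.68 was the highest in PTCL, and its summed T cell marker intensity of 7793 was the lowest of the T dogs. Macrophage genes were also among its widest gaps, with CD163 at 7.69 against at most 2.57. The part of these cells in its values was not tested. PTCL replicate 2, with the highest BCL6 of all dogs (12.43), was unlike it: its LMO2 was 6.20, its RGS13 2.31 and its B cell marker mean 3.66.

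The other genes of the germinal centre programme were examined by lists. Of 35 germinal centre B cell genes other than the 7, 30 were measured and 23 tested, and 9 were higher and 4 lower in B than in T, with a median difference of 0.44 against 0.03 over all genes tested. The share called was 56.5%, near the 46.5% of all genes. The smallest adjusted p were those of TNFRSF13B, the receptor TACI (3.39, SE 0.34, adjusted p = 1.10e-09), the B lineage factor EBF1 (3.74, SE 0.49, adjusted p = 1.91e-07), the costimulatory receptor CD40 (3.28, SE 0.47, adjusted p = 8.33e-07) and SWAP70 (2.47, SE 0.40, adjusted p = 6.15e-06). These are expressed by B cells in general. MS4A1 itself was 3.38 higher and CD79A, a B cell receptor chain, 1.69 higher, while CD3E, part of the CD3 signalling unit of T cells, was lower (-4.61). In PTCL against TZL 13.7% of all genes were called. None of the 7 B cell and none of the 9 T cell markers was called, and CD3E differed by -0.72 (adjusted p = 0.716). Markers of other cells were called there and were higher in PTCL: 2 of 9 tested macrophage markers, CD14 (2.38) and CD68 (1.98), the endothelial receptor KDR (1 of 2 tested, below the minimum in every TZL dog and at least 1.87-fold higher) and the neutrophil protease MMP9 (1 of 4 tested, 2.77). Their part in the differences between PTCL and TZL was not tested.

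Of 13 tested members of BCL6 corepressor complexes, 2 were higher and 5 lower in B (median -0.22), a share of 53.8% near the 46.5% of all genes. MTA3, the subunit that joins BCL6 to a deacetylase complex in germinal centre B cells, was 2.32 higher (SE 0.34, adjusted p = 1.46e-06; 4.94 ± 1.24 in B and 2.62 ± 0.76 in T). BCOR, the BCL6 corepressor, was lower (-1.06, SE 0.23, adjusted p = 0.000326), as were TBL1X (-1.24) and ZBTB16 (-1.37), a relative of BCL6. The B mean of ZBTB16 was below the minimum, and with such values set to it ZBTB16 was 1.53-fold lower in place of 2.58-fold. BCOR was also 1.24 higher in PTCL than in TZL (SE 0.35, adjusted p = 0.0152), and lower in DLBCL than in PTCL (-1.87, adjusted p = 0.000216). KDM1A, a histone demethylase of these complexes, was 0.69 higher in PTCL than in TZL (adjusted p = 0.0142).

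Of 18 tested genes known to be repressed by BCL6, 10 were lower and 5 higher in B, with a median of -1.02 (83.3% called, against 46.5% of all genes). The list holds genes of T cells, and the T cell markers differ between these groups. The part of T cells in these differences was not tested. IL7R, the interleukin 7 receptor of T cells, was lower (-5.08, SE 0.42, adjusted p = 1.50e-11), as was the survival gene BCL2L1 (-1.71). TLR4, a receptor for bacterial products, was 2.70 higher and the DNA damage kinase ATR 1.13 higher. The T mean of TLR4 was below the minimum, and with such values set to it TLR4 was 3.84-fold higher in place of 6.48-fold. PRDM1 was lower in B (-1.34, SE 0.46, adjusted p = 0.0176), with means of 2.95 ± 0.96 in B and 4.29 ± 1.72 in T. It was below the minimum in 16 of the 17 B dogs. With such values set to the minimum, PRDM1 was 1.64-fold lower in place of 2.53-fold. Between PTCL and TZL, 1 gene of this list was higher, the kinase CHEK1 (1.95, adjusted p = 0.00069), and 3 were lower, among them IFNGR1 (-1.66) and the costimulatory ligand CD80 (-2.31). That was 22.2% of the list, against 13.7% of all genes. For IFNGR1 and CD80 the grade step also differed between the phenotypes (2.04 and 2.77, adjusted p = 0.0237 and 0.0478).

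Of 15 tested genes of follicular helper T cells, 11 were lower and 3 higher in B, with a median of -2.77. The share called was 93.3%, against 46.5% of all genes. The differences were -6.10 for the costimulatory receptor CD28, -6.28 for CD40LG, the CD40 ligand, -5.61 for the transcription factor LEF1 and -2.77 for IL21R, the interleukin 21 receptor, and all passed. CD40LG and IL21R were below the minimum in every B dog, so that against the minimum the T mean was at least 25.2-fold and at least 3.02-fold higher. CD28 and LEF1 are also expressed by many other T cells. Their B means were below the minimum. With such values set to it they were 31-fold and 28.2-fold lower in place of 68.6-fold and 48.7-fold. Between PTCL and TZL 2 rose, TOX (3.87, SE 0.82, adjusted p = 0.0016) and IL6ST (1.74, adjusted p = 0.0159), and CD40LG was lower (-1.65, adjusted p = 0.034), against 13.7% of all genes called. LBT against TZL showed the same directions for TOX (3.79), IL6ST (3.13) and CD40LG (-2.23), with the TZL dogs shared between both comparisons. IL6ST was below the minimum in every TZL dog, which makes it at least 2.04-fold higher in PTCL and at least 5.33-fold higher in LBT. BCL6 itself did not pass in either of them.

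Of 12 tested genes of confinement and migration, 2 were higher and 6 lower in B, with a median of -0.59 (66.7% called, against 46.5% of all genes). CXCR5, the receptor that draws cells into follicles, was 2.88 higher (SE 0.54, adjusted p = 4.62e-05) and its ligand CXCL13 2.24 higher (SE 0.60, adjusted p = 0.00264). The T mean of CXCR5 was below the minimum, and with such values set to it CXCR5 was 3.41-fold higher in place of 7.34-fold. The chemokines of the T cell zone were lower, CCL19 (-3.85) and CCL21 (-3.39). They were lower in PTCL than in TZL as well (-3.31 and -3.64, adjusted p = 0.00328 and 0.00349). ARHGEF1, which relays the signal of S1PR2, was lower in PTCL than in TZL (-1.22, adjusted p = 0.0138).

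Relatives and partners of MYBL1, MEF2B and LMO2 were listed too. Between B and T the shares called were 60%, 20% and 80% of these lists, against 46.5% of all genes. Of 5 tested genes around MYBL1 (median difference 0.15), MYBL2, the cell cycle relative, was 2.05 higher in B (adjusted p = 0.000506), while MYB (-1.99) and LIN9 (-0.51) were lower. MYB was 3.76 higher in PTCL than in TZL (SE 0.53, adjusted p = 1.79e-05) and 6.10 higher in LBT than in TZL (adjusted p = 7.57e-10). All 9 TZL dogs and all B dogs were below the minimum for it, and against the minimum it was at least 3.73-fold higher in PTCL and at least 18.9-fold higher in LBT. MYBL2 and FOXM1 were higher in PTCL too, by 2.47 and 2.45, so 3 of the 5 rose there (60%, against 13.7% of all genes). Of the 23 germinal centre B cell genes 4 were called in PTCL against TZL (17.4%, near the 13.7% of all genes), STMN1 (1.95), EZH2 (2.25) and HMGB1 (0.91) higher and ARHGEF1 lower. Of 5 tested genes around MEF2B (median -0.15), only MEF2C was called, 1.83 higher in B (SE 0.50, adjusted p = 0.0033). Of 5 tested partners of LMO2 (median 0.43), TCF4 (2.03) and the bridging factor LDB1 (0.86) were higher in B, and GATA3, the T cell regulator, was lower (-5.76), as was LMO4 (-2.35). The B mean of GATA3 was below the minimum, and with such values set to it GATA3 was 26.4-fold lower in place of 54.3-fold.

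In DLBCL against PTCL, where BCL6 differed most, the shares of the germinal centre (26.1%), corepressor (23.1%) and repressed (22.2%) lists that were called lay near the 20.9% of all genes. Of the 15 tested follicular helper T genes 10 were lower in DLBCL and 0 higher (66.7%). All 9 T cell markers were lower as well, and their part in this was not tested. The lists around MYBL1 and LMO2 had 40% called each, confinement and migration 8.33% and the list around MEF2B 0%. Of the 13 corepressor genes 1 was higher in DLBCL, MTA3 (1.59, adjusted p = 0.0479), and 2 were lower, BCOR and TBL1X (-1.26). Of the 18 genes repressed by BCL6, ARID3A was higher (1.27) and IL7R (-4.94), CD80 (-1.69) and the cyclin CCND2 (-1.71) were lower. PRDM1 did not pass (-1.29, adjusted p = 0.177). Of the 23 germinal centre B cell genes 4 were higher, TNFRSF13B (3.99), EBF1 (3.14) and CD40 (2.72) among them, and 2 were lower, including the cyclin CCND3 (-3.04).

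Markers of further cell types were compared between B and T as well, where 46.5% of all genes tested were called. Of 4 tested plasma cell markers 3 were lower in B, and of 5 tested markers of follicular dendritic cells, the stromal scaffold of the germinal centre, 3 were lower and 1 was higher. FCER2 and PDPN of that list were below the minimum in every dog, and its mean log2 intensity was 2.94 to 5.13 in B dogs and 3.20 to 5.62 in T dogs. Of the macrophage markers 1 of 9 tested was higher, of the stromal markers 1 of 6 and of the neutrophil markers 1 of 4 was lower, and of the endothelial markers neither of the 2 tested was called. Their part in the values of the 7 genes was not tested.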

How the data were processed

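The authors deposited an intensity for each probe set and array, linear in scale and summarised with GCRMA, per the submitters' processing notes. Sources used here name no version. GCRMA subtracts a background estimated from probe sequence, so dim probe sets lie near a common low value and their differences carry little. Per the labels' protocols, biotin-labelled cRNA was hybridised.

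Here the deposited intensities were floored at 1 (1 value), put on a log2 scale, and reduced to 1 probe set per gene symbol. The tests took the 7500 genes that reached a log2 intensity of 4 in 4 or more of the 34 dogs compared. Array medians were intensities of 5.57 to 6.13, and the number of dogs limits the precision. The tests were limma 3.58.1 in R 4.3.3 (lmFit, eBayes, two-sided), with Benjamini-Hochberg adjustment over all genes tested and calls at an adjusted p under 0.05. The phenotypes were compared as 2 means, and disease states in 1 fit of 6 means. The NBNT dog entered no test. The fits were tested on simulated data. Likeness was a correlation after subtraction of state means.

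The 7 genes, the 16 lists (211 symbols, 11 of them in more than 1 list) and the settings were chosen with earlier results of these data known. Named genes are the 7, the 3 genes most like each tested one, MS4A1, CD79A, CD3E and PRDM1, and up to 4 genes per list with the smallest adjusted p in the comparison described. The genes of single tumours were named after their values were seen. Gene symbols come from the platform annotation, and genome positions were not used here.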

Additional observations from a re-analysis of the deposited data

Results flagged for a closer look

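Within each disease state of 4 to 10 dogs the highest and the lowest value of each of the 7 genes was set against the rest of its state by Dixon's gap over range, in 35 sets of dogs. Chance singles out about 1 in 20 such sets, and 7 values stood apart. RGS13 did so in DLBCL replicate 3 (10.8), TZL replicate 7 (6.46) and PTCL replicate 4 (4.72), which are above the minimum and described above. LMO2 in TZL replicate 5 was low at 1.65, in a tumour whose B cell marker mean was also low (3.42), although CD79A of that list was at 8.65. MME in TZL replicate 6 (3.24), MYBL1 in TZL replicate 5 (3.87) and MEF2B in DLBCL replicate 3 (3.42) were the highest of their states but stayed below the minimum of 4, where values have no reliable order. For BCL6 in DLBCL replicate 3 the gap was 0.42 of the range of the DLBCL dogs, under the 0.466 that the comparison asks for.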

How the results depend on the processing

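The 3 tested genes over 9 comparisons were refitted without each of 34 dogs in turn and under those of 18 alternatives that applied to each. Of 1299 values 1257 kept their direction and side of the threshold, 2 lost a call, 3 gained one and 37 changed sign, none of them called. BCL6 and LMO2 kept their calls between B and T in all of these but the 6 arrays alone (an alternative added after seeing the data), where 0 of the 3 genes passed, RGS13 was -1.50, and 149 genes were called in place of 3486. That fit has 6 dogs, and the cause of the change was not tested. Without 1 dog, BCL6 ran from -2.71 to -2.30 and LMO2 from 2.33 to 2.86.

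The members called in MZL against TZL became 2 with array weights and when only those states were fitted, and in LBT against TZL 0 to 1 without 1 dog. For BCL6, LBT minus TZL was near 0 and turned to 0.042 with arrays centred and 0.058 with array weights, and it ran from -0.39 to 0.39 without 1 dog. For RGS13, B minus T turned to -0.29 (array weights), -0.0115 (sex, age and breed), -0.0727 (3' to 5' control differences) and -0.0290 (both arrays of the repeated dog), and ran from -0.47 to 0.23 without 1 dog. RGS13 turned to -0.28 in DLBCL minus PTCL (array weights; -0.68 to 0.72 without 1 dog), to 0.48 in PTCL minus TZL (without the 6 arrays; -0.78 to 0.18) and to 0.14 in LBT minus PTCL (sex, age and breed). In BL minus DLBCL, with 2 BL dogs, BCL6 ran from -1.18 to 3.06 and RGS13 from -0.59 to 2.27 without 1 dog.

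Counts of all genes called moved more. DLBCL against MZL (0 genes) gave 17 at a minimum of 6, 39 with low values set to 4, 378 with array weights, 13 with probe sets averaged, 19 without the 6 arrays, 20 with both arrays of the repeated dog and 0 to 68 without 1 dog. BL against DLBCL (2) gave 6 unfiltered, 1 at a minimum of 6, 1 with quantile normalization, 11 with low values set to 4, 12 with array weights, 0 with probe sets averaged, 4 without the 6 arrays, 6 with the control differences and 1 to 12 without 1 dog. LBT against PTCL (51) gave 33 at a minimum of 6, 96 with low values set to 4, 82 with the 6 arrays as a block, 4 with sex, age and breed, 0 with those states alone and 11 to 180 without 1 dog. PTCL against TZL (1025) gave 547 without the 6 arrays and 587 to 1088 without 1 dog, grade steps (147) 45 and 61 to 281, and DLBCL against PTCL (1567) 988 with those states alone. The causes were not tested. No paired analysis was possible because the replicate numbers follow the order of the samples and pair no dogs. Single probe sets and values below the minimum limit 4 of the 7 genes.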
